A study of Mus musculus with 2 samples.

Results

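Deep-layer and subplate neuron genes are described here by 10 members, Bcl11b, Fezf2, Tbr1, Tle4, Foxp2, Sox5, Etv1, Nr4a2, Nxph4 and Ntsr1, chosen by gene symbol out of 43346 gene rows. All 10 were found in both libraries. The 2 libraries came from cortex of adult C57BL/6J mice aged 8 weeks, untreated as far as the labels say, with tissue of male and female littermates pooled. The labels call the tissue cortical plate, which is otherwise a name for an embryonic structure, and give both libraries the same donor record. Polyadenylated RNA over 200 nt was sequenced as paired reads with strand information. They are labelled biological replicates 1 and 2 and form 1 group. No second condition exists, so every comparison of libraries below sets replicate 1 against replicate 2, and its p-values describe these 2 libraries and no treatment or genotype.

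Neurons of layers 5 and 6 send axons out of the cortex, to the brainstem, spinal cord and thalamus, and the subplate, which persists in the adult mouse as a thin layer 6b, holds some of the earliest born cortical neurons. A small network of transcription factors sets these identities during development. Fezf2 directs the fate of subcerebral projection neurons and acts upstream of Bcl11b, while Tbr1 represses Fezf2 in corticothalamic neurons of layer 6 and Sox5 controls the order in which deep-layer neurons arise. Many of these factors remain transcribed in adult neurons, where they are used as layer markers beside surface and secreted proteins such as the neurotensin receptor Ntsr1 and neurexophilin 4 (Nxph4).

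Replicate 1 held 88327121 expected counts on genes and replicate 2 held 88643335. Markers of regions and cell types differed between the libraries, and some members are also transcribed outside the cortex. All 14 striatal markers were lower in replicate 1 (median log2 ratio of replicate 1 over replicate 2 of -2.05, summed level 153.86 TPM in replicate 1 and 464.33 TPM in replicate 2), with the striatal factor Isl1 at 0 in replicate 1 alone. All 6 hippocampal markers were higher in replicate 1 (median 1.47, 27.85 TPM and 13.28 TPM). The 8 oligodendrocyte markers were all lower in replicate 1 (median -0.426, 3716 TPM and 4530 TPM), and the 5 excitatory neuron markers, which include the vesicular glutamate transporter Slc17a7 at 572.0 TPM in replicate 1 and 478.88 TPM in replicate 2, were all higher there (median 0.098). In bulk tissue, fewer cells of a type and less RNA per cell cannot be told apart.

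All 10 members were transcribed in the adult tissue, at levels given in TPM (transcript abundance per length, scaled to a fixed library total). Tbr1, the T-box factor of layer 6 and subplate neurons (ENSMUSG00000035033, GRCm38 chromosome 2, 61802930 to 61814114, plus strand), was the highest, with 41.4 TPM in replicate 1 and 37.7 TPM in replicate 2. That level lay above 86.7% of 21461 nuclear protein-coding genes in replicate 1 and above 87.0% in replicate 2. Nxph4 (chromosome 10, 127525473 to 127534559, minus strand) was the lowest, with 2.06 TPM in replicate 1 and 1.46 TPM in replicate 2, above 43.9% and 41.9% of those genes. Many of those genes were near 0: only 13078 reached 1 TPM in replicate 1 and 12987 in replicate 2. Nxph4 ranked 12018 in replicate 1 and 12445 in replicate 2, near the low end of the genes at 1 TPM or more. The median of the 10 members' mean levels was 12.3 TPM, and 6 members averaged at least 10 TPM.

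The order of the mean levels was Tbr1, Fezf2, Etv1, Tle4, Bcl11b, Sox5, Nr4a2, Foxp2, Ntsr1 and Nxph4. Tbr1 stood apart from Fezf2, Tle4 from Bcl11b, Nr4a2 from Foxp2, and Ntsr1 from Nxph4, in that the replicate values did not overlap and the gap between means was larger than the sum of both SDs. The other 5 neighbouring pairs in that order (Fezf2 and Etv1, Etv1 and Tle4, Bcl11b and Sox5, Sox5 and Nr4a2, Foxp2 and Ntsr1) did not differ beyond their spread over 2 libraries.

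**Figure D1:**
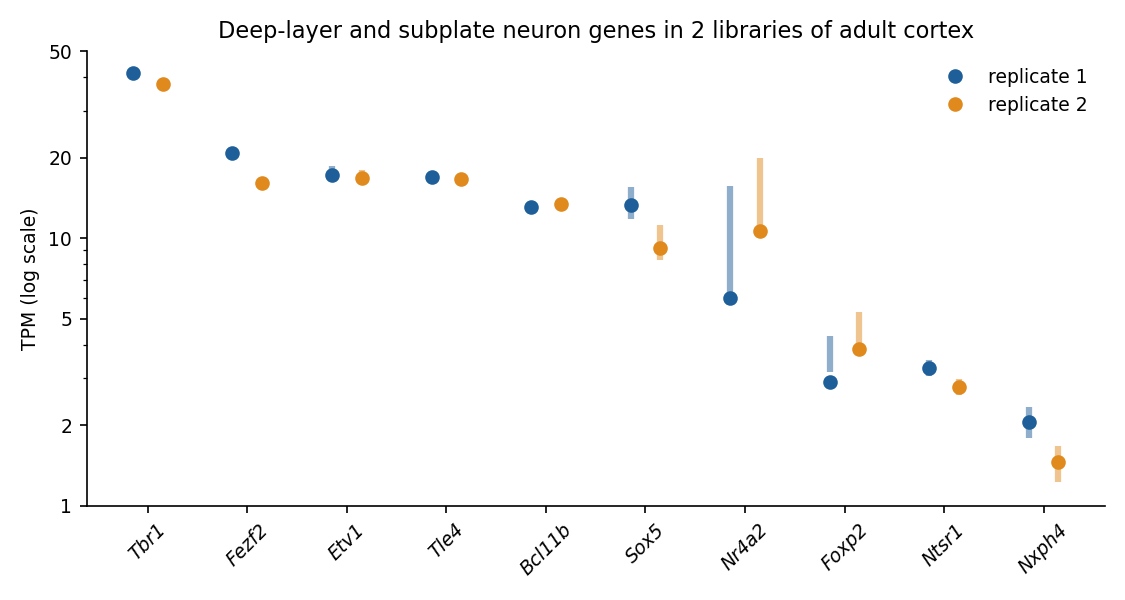
Level of each member in TPM (log scale) in replicate 1 (blue, left) and replicate 2 (orange, right), with points for the deposited TPM and bars for the authors' credible bounds. Tbr1 lies highest at 41.4 and 37.7 TPM, Nr4a2 has the widest bounds, and the points of Foxp2 lie below its own bounds.

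Among the factors of layer 5, Fezf2, a zinc-finger regulator of the corticospinal fate (ENSMUSG00000021743, chromosome 14, 12342094 to 12348189, minus strand), had 2951 counts in replicate 1 and 2496 in replicate 2, which gave 20.7 TPM and 16.0 TPM. Bcl11b, also known as Ctip2, a zinc-finger factor needed for corticospinal axon growth and also a factor of striatal projection neurons (ENSMUSG00000048251, chromosome 12, 107910403 to 108003602, minus strand), had 13.1 TPM in replicate 1 and 13.4 TPM in replicate 2. Its 5123 counts in replicate 1 were fewer than the 5459 in replicate 2. Etv1, an ETS-domain factor also known as Er81 and a classical marker of layer 5 (ENSMUSG00000004151, chromosome 12, 38779380 to 38870484, plus strand), averaged 16.99 ± 0.283 TPM (SD, n = 2). Fezf2 thus was the member of this layer with the larger spread, 18.4 ± 3.32 TPM (SD, n = 2), against 13.3 ± 0.247 TPM for Bcl11b.

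Among the members of layer 6, Tle4, a Groucho-family co-repressor (ENSMUSG00000024642, chromosome 19, 14448150 to 14598051, minus strand), had 16.9 TPM in replicate 1 and 16.6 TPM in replicate 2. Foxp2, a forkhead repressor known for its part in vocal learning and present in striatal and thalamic neurons too (ENSMUSG00000029563, chromosome 6, 14901349 to 15441977, plus strand), had 2.91 TPM in replicate 1 and 3.87 TPM in replicate 2. Both deposited values of Foxp2 lay below the authors' credible bounds of the same quantity, 3.15 to 4.33 TPM in replicate 1 and 3.91 to 5.30 TPM in replicate 2, so its absolute level is uncertain by that much. Ntsr1, a G-protein-coupled receptor for the peptide neurotensin whose gene marks corticothalamic neurons in mice (ENSMUSG00000027568, chromosome 2, 180499976 to 180544980, plus strand), had 3.27 TPM in replicate 1 and 2.79 TPM in replicate 2. The peptide gene Nts itself was sparse, with 1.06 TPM in replicate 1 and 1.20 TPM in replicate 2. Nts was named after its values were seen.

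Among the genes of subplate and layer 6b neurons, Sox5, an SRY-box factor without a transactivation domain (ENSMUSG00000041540, chromosome 6, 143828425 to 144781977, minus strand), had 13.4 TPM in replicate 1 and 9.19 TPM in replicate 2. Its counts were much closer, 3289 in replicate 1 and 3040 in replicate 2, while the mean effective length used for TPM was 3637 nt in replicate 1 and 4455 nt in replicate 2. Of the Sox5 level, 4.44 TPM in replicate 1 and 2.1 TPM in replicate 2 came from a processed transcript of 351 nt. That transcript had only 45.17 expected counts in replicate 1 and 22.25 in replicate 2. Nr4a2, an orphan nuclear receptor also known as Nurr1 that marks subplate and claustrum neurons and is also an activity-regulated gene (ENSMUSG00000026826, chromosome 2, 57106830 to 57124003, minus strand), had 5.99 TPM in replicate 1 and 10.6 TPM in replicate 2. The bounds of its level were wide, 5.63 to 15.6 TPM in replicate 1 and 10.1 to 20.02 TPM in replicate 2. Nxph4, a secreted ligand of alpha-neurexins (ENSMUSG00000040258), rested on 206 counts in replicate 1 and 159 in replicate 2.

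On the older mm9 assembly the authors' gene table gave levels in RPKM in 2 columns that are not tied to replicate numbers. Tbr1 was again highest, with 6.09 RPKM in the first column and 5.67 RPKM in the second, and Nxph4 lowest, with 0.284 and 0.215 RPKM. Of the 10 members, 7 averaged at least 1 RPKM, and the order of the means differed from the one on mm10 only in that Tle4 (2.36 RPKM) stood before Etv1 (2.09 RPKM). Foxp2 had 0.451 RPKM in the first column and 1.09 RPKM in the second, a wider relative spread than that of its counts on mm10.

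Between the libraries, Nr4a2 was the member that differed most, at 1175 counts in replicate 1 and 2346 counts in replicate 2. Scaled for library size with edgeR's TMM, replicate 1 held 0.491 times the level of replicate 2 (95% counting interval 0.457 to 0.527; log2 ratio -1.03; exact binomial test with Benjamini-Hochberg adjustment over all genes, adjusted p = 5.5e-91). Foxp2 followed, with 1145 counts in replicate 1 and 1476 in replicate 2 (0.761 times, interval 0.703 to 0.822). Fezf2 went the other way, at 1.16 times (interval 1.10 to 1.22) the level in replicate 2. In all, 6 of the 10 members passed the threshold of 0.05, where 28.7% of 19829 genes tested did. Higher in replicate 1 was 1 member, Fezf2, where 14.0% of all genes were, and 5 members were lower, where 14.8% of all genes were.

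The other 3 called members were lower in replicate 1 by small amounts. Tle4 had 4991 counts in replicate 1 and 5369 in replicate 2, Etv1 had 4300 and 4619 in the same order, and Bcl11b stood at 0.920 times its level in replicate 2 (interval 0.886 to 0.956). The log2 ratios of the 3 genes lay between -0.134 and -0.12. Not passing the threshold were Tbr1 with 10416 counts in replicate 1 and 10330 in replicate 2 (0.989 times, interval 0.962 to 1.02), Sox5 (1.06 times, interval 1.01 to 1.11), Ntsr1 with 823 counts in replicate 1 and 768 in replicate 2 (1.05 times, interval 0.951 to 1.16), and Nxph4 (1.27 times, interval 1.03 to 1.57). The median log2 ratio of the members was -0.068, beside -0.003 over all genes tested.

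These intervals cover counting error only. For a second test, a common coefficient of variation was estimated from the same 2 libraries, treated as 1 group. The differences under test therefore also set the error of that test. edgeR calls the measure biological, but the spread may be partly technical. With a negative binomial exact test in edgeR that used the common biological coefficient of variation of 0.0905, Nr4a2 (adjusted p = 2.2e-05) was the 1 member called, where 1.31% of all genes tested were. Nr4a2 was also the 1 member called with at least a 1.5-fold difference, where 4.38% of genes were in either direction and 2.8% were lower in replicate 1. On the TPM scale the median log2 ratio of all genes was 0.156, so that Tle4, Etv1 and Tbr1, with log2 ratios of scaled counts under 0, had log2 ratios of TPM just above 0. Scaled by plain totals of gene counts, Sox5 and Nxph4 were called too, 8 members in all, and 66.8% of all called genes were higher in replicate 1, where 48.6% were with TMM.

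**Figure D2:**
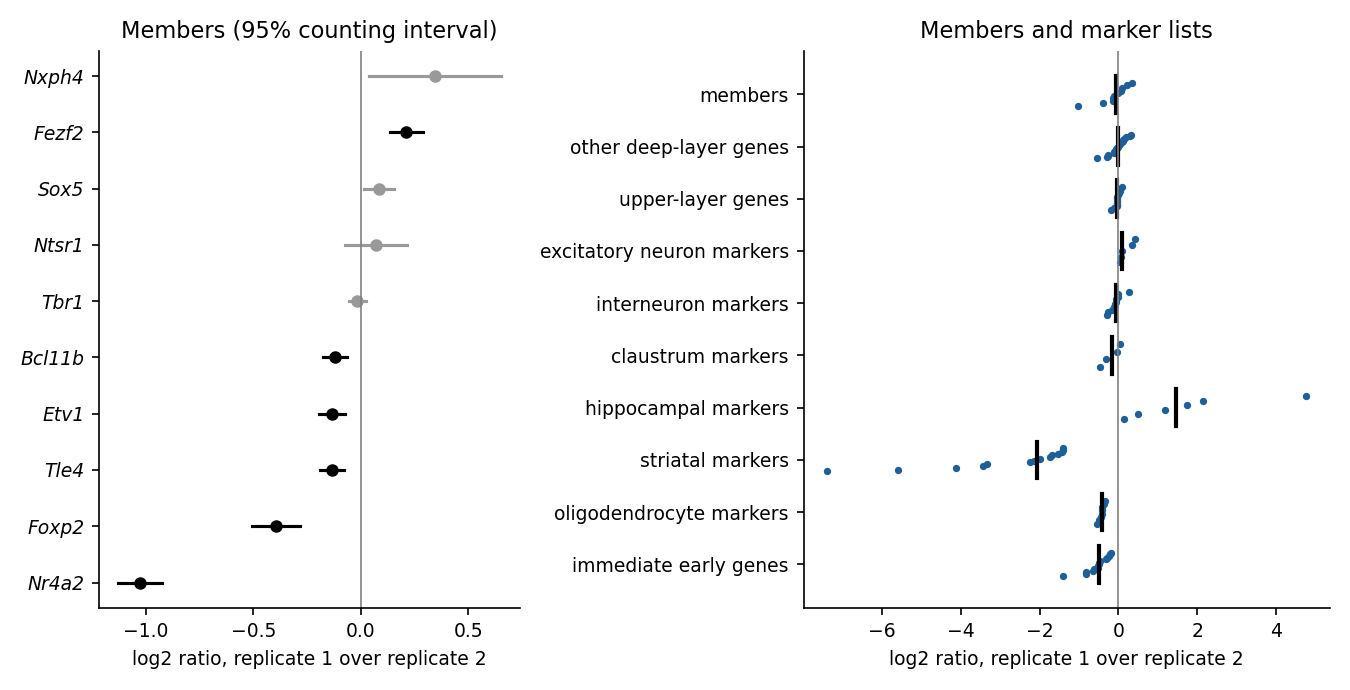
Left, log2 ratio of replicate 1 over replicate 2 for each member with its 95% counting interval (black, called; grey, not called). Right, the same ratio for each tested gene of the members and of 9 marker lists (points) with the list's median (black bar): Nr4a2 lies at -1.03, the striatal markers at a median of -2.05 and the hippocampal markers at 1.47.

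Other gene sets moved beside these members, and their part in the differences was not tested. Bcl11b and Foxp2 are transcribed in striatal neurons, and both were lower in replicate 1 together with 14 of 14 striatal markers. The log2 ratio was -0.12 for Bcl11b and -0.395 for Foxp2, where the striatal median was -2.05. The other called members stood at -0.134 (Tle4), -0.132 (Etv1), -1.03 (Nr4a2) and 0.213 (Fezf2). Foxp2 is also present in thalamic neurons, and the 7 thalamic markers tested had a median log2 ratio of -0.08. All 8 thalamic markers summed to 53.3 TPM in replicate 1 and 49.65 TPM in replicate 2. Nr4a2 belongs to the family of activity-regulated genes, and all 15 immediate early genes listed were lower in replicate 1 (median log2 ratio -0.498, summed level 351.76 TPM in replicate 1 and 464.0 TPM in replicate 2), among them the family members Nr4a1 (33.9 TPM and 42.2 TPM, log2 ratio -0.475) and Nr4a3 (5.73 TPM and 5.93 TPM, log2 ratio -0.18). Nr4a2 also marks the claustrum, and of 4 claustrum markers found, 2 were lower in replicate 1, Synpr (32.1 TPM and 36.6 TPM, log2 ratio -0.313) and Gnb4 (20.4 TPM and 23.0 TPM, log2 ratio -0.457), while Lxn and Ntng2 were not called. Gnb4 was named after its values were seen. Midbrain dopamine neurons, another known site of Nr4a2, were represented by 8 markers with a summed level of 5.35 TPM in replicate 1 and 4.80 TPM in replicate 2, most of it from Ddc (4.2 and 3.66 TPM) and Th (0.93 and 0.91 TPM), enzymes of dopamine synthesis. Foxa2 and En1 were at 0 in both libraries, the dopamine transporter Slc6a3 had 0.02 TPM in replicate 1 and 0.05 TPM in replicate 2, and of the 5 markers tested none was called.

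The promoter of Nr4a2 is shown because many activity-regulated genes are known to carry the binding site of the cyclic AMP response factor CREB, whose core is TGACG. The 250 bases before the RefSeq start of Nr4a2, chr2:57124004-57124253 on the minus strand of GRCm38.p6, hold that string or its reverse complement CGTCA 4 times, with the nearest beginning 111 bases before the start, marked in capitals.
Nr4a2 promoter: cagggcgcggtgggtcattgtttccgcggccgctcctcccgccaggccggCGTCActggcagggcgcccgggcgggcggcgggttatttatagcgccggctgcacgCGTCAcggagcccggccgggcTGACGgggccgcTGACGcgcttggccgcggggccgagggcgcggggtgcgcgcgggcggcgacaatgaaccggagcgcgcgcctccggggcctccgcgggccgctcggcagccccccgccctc
Of 32851 RefSeq windows of the same length, 17.8% hold at least 1 such string on either strand and 0.688% hold 3 or more. Of the 8 members with a window in the table, Nr4a2 and Ntsr1, with 1 match, held it. The windows of the paralogs Nr4a1 and Nr4a3 held 4 each, and that of Fos, another immediate early gene, held 2. No other immediate early gene was looked up singly, so these do not describe the group. A match describes letters in a window and not a bound site.

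The members' relatives in the same gene families were often the more abundant ones. Over 19 pairs of a member and a paralog, the member was the higher in both libraries in 8 pairs and the lower in both in 11. Tbr1 and Fezf2 stood far above the paralogs compared here. Eomes (Tbr2), the T-box factor of intermediate progenitors, had 0.1 TPM in replicate 1 and 0.02 TPM in replicate 2. Tbx21 had 0.06 and 0.05 TPM, and Fezf1 had 0.07 and 0.03 TPM. Each of these 3 paralogs rested on at most 18 counts in a library. Tbr1 exceeded Eomes by a log2 ratio of 9.79 ± 1.55 (SD, n = 2) and Tbx21 by 9.49 ± 0.0907, and Fezf2 exceeded Fezf1 by 8.64 ± 0.603. With 9 counts of Tbx21 in each library, its small SD does not reflect the counting error.

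In the other families the member shared the tissue with abundant relatives. Bcl11b lay under Bcl11a (35.1 TPM in replicate 1 and 31.0 TPM in replicate 2) by a log2 ratio of -1.31 ± 0.152. Tle4 lay under each of the other 3 long Groucho genes, Tle2 (60.9 and 48.3 TPM), Tle1 (25.6 and 22.4 TPM) and, by the small log2 ratio of -0.173 ± 0.0706, Tle3 (19.8 and 18.1 TPM). Without division by length the counts of Tle4 were above those of Tle1 and Tle3. Foxp2 was under Foxp1 (43.8 and 49.8 TPM) and Foxp4 (24.4 and 23.8 TPM), with log2 ratios of -3.80 ± 0.159 and -2.84 ± 0.316. These distances depended on the measure: without division by length they were -2.77 and -1.27, and in RPKM on mm9 -2.72 and -1.72. Likewise, the counts of Bcl11b were under those of Bcl11a by a log2 ratio of -0.248. Foxp1 and Foxp4 can form dimers with Foxp2, and Foxp1 was itself lower in replicate 1 (log2 ratio -0.249).

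Sox5 was above its SoxD relatives Sox6 (3.12 TPM in replicate 1 and 2.69 TPM in replicate 2) and Sox13 (7.84 and 6.68 TPM). Etv1 was above Etv4 (10.8 and 10.2 TPM) and below Etv5 (41.7 and 37.7 TPM), the other members of the PEA3 group of ETS factors. Nr4a2 was below Nr4a1 by a log2 ratio of -2.24 ± 0.36, and its excess over Nr4a3 was 0.453 ± 0.55, smaller than the spread between the libraries. Of the neurexophilins, Nxph3, which like Nxph4 is a gene of deep layers, had 18.2 TPM in replicate 1 and 14.9 TPM in replicate 2, and Nxph1, a gene of interneurons, had 14.1 and 11.7 TPM, each above Nxph4, while Nxph2 (0.88 and 0.74 TPM) was below it. Ntsr2, the receptor found mainly in astrocytes, had 140.0 TPM in replicate 1 and 127.7 TPM in replicate 2 and exceeded Ntsr1 in both.

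**Figure D3:**
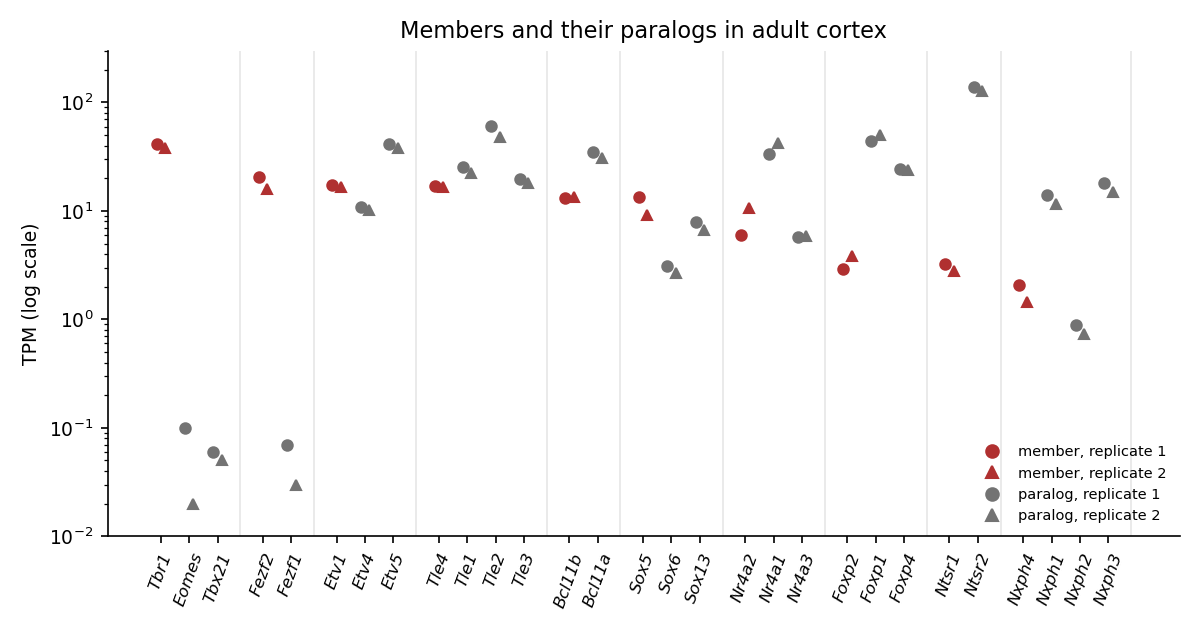
TPM (log scale) of each member (red) and its paralogs (grey) in replicate 1 (circles, left) and replicate 2 (triangles, right), with families separated by lines. Tbr1 and Fezf2 lie far above their paralogs, which are at or under 0.1 TPM, and Foxp2, Ntsr1 and Nxph4 lie below most of theirs.

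Known binding partners of the members were present. Nrxn2, a neurexin whose alpha form binds neurexophilins, had 155.4 TPM in replicate 1 and 137.0 TPM in replicate 2. Sort1, a sorting receptor that binds neurotensin, had 111.4 TPM in replicate 1 and 99.3 TPM in replicate 2. The retinoid receptor Rxrg, a dimer partner of Nr4a2 that is also abundant in striatum, had 116 counts in replicate 1 and 848 counts in replicate 2 (0.95 and 6.40 TPM, log2 ratio -2.89), and was the 1 partner of 14 called with at least a 1.5-fold difference.

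A wider list of 21 other deep-layer genes gave a background for the members. Pcp4, a calmodulin-binding protein of layer 5 and 6 neurons, was its highest with 331.13 TPM in replicate 1 and 370.94 TPM in replicate 2, followed by Rprm (48.3 and 42.1 TPM), a cell-cycle gene used as a layer 6 marker, and Crym (39.2 and 32.7 TPM), a thyroid hormone binding protein. Of the 21 genes, 5 were higher in replicate 1, 5 were lower and 11 were not called, with a median log2 ratio of -0.012, and none differed by 1.5-fold or more. Of 13 upper-layer genes none was higher, 2 were lower and 11 were not called, with a median of -0.031. The median of the mean levels was 12.3 TPM in the members, 10.6 TPM in the other deep-layer genes and 19.96 TPM in the upper-layer genes. The lists were compared by these counts and medians alone.

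Transcript shares, the percent of a gene's TPM that each transcript holds in the authors' tables, differed between members in how far 1 transcript led. Fezf2 and Nxph4 have 1 annotated transcript, Ntsr1 gave all of its TPM to 1 of 2, Tbr1 gave 98.1% in replicate 1 and 97.3% in replicate 2 to its leading transcript, and Tle4 gave 93.9% and 94.2%. That dominance of 1 Tle4 transcript held on mm10 alone: in the authors' mm9 transcript table it held 42.2% of Tle4 RPKM in the first column and 41.3% in the second, and the other Tle4 transcript led with 57.8% and 58.7%. The second Ntsr1 transcript, with no share on mm10, held 15.5% in the first column and 11.6% in the second there. Foxp2, with 19 annotated transcripts, gave 65.5% in replicate 1 and 58.3% in replicate 2 to one of 6760 nt, and 23.0% and 17.7% to one of 5647 nt. In the mm9 table the columns of Foxp2 disagreed, with 75.9% in the first and 5.69% in the second for the 6760-nt transcript, and 21.4% and 63.8% for a retained-intron one of 2103 nt. On mm10 the leading transcript held under 60% in the 4 remaining members, Bcl11b, Etv1, Nr4a2 and Sox5.

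Bcl11b was split between a transcript of 8111 nt, with 59.4% in replicate 1 and 53.4% in replicate 2, and one of 2888 nt, with 39.8% and 46.6%. Etv1 was led by a transcript of 3981 nt in both libraries, at 50.4% in replicate 1 and 61.5% in replicate 2, with one of 4307 nt at 39.9% and 29.5%. In the mm9 table the 3981-nt one led too, with 60.7% in the first column and 46.8% in the second, but the 4307-nt one held 11.2% and 9.94%. A retained-intron transcript of 3605 nt came next there, with 23.3% and 39.7%. On mm10 that transcript held 2.4% in replicate 1 and 3.18% in replicate 2. On mm10 Nr4a2 had 2 coding transcripts of similar share, 40.3% in replicate 1 and 44.5% in replicate 2 for one of 3422 nt and 37.1% and 38.9% for one of 3568 nt, beside a noncoding one of 1099 nt (12.0% and 11.5%). In the mm9 table the 3422-nt one held 46.8% in the first column and 34.6% in the second, and the 3568-nt one 15.8% and 24.6%. Another coding one, of 2400 nt, held 18.7% and 24.8% there, but 9.57% in replicate 1 and 2.13% in replicate 2 on mm10. The 182-nt processed transcript of Nr4a2 had no share in the deposited TPM of either library, yet held 34.6% in replicate 1 and 22.9% in replicate 2 of the posterior mean TPM. That is the gene with the widest credible bounds. Sox5 had no dominant transcript: a coding one of 7069 nt held 24.9% in replicate 1 and 33.4% in replicate 2, a processed transcript of only 351 nt held 33.2% and 22.8%, and a coding one of 7243 nt held 13.2% and 22.4%. On mm10 the leading transcript of Sox5 therefore differed between the libraries. The 351-nt one rested on only 45.17 expected counts in replicate 1 and 22.25 in replicate 2. In the mm9 table a coding transcript of 7071 nt led instead, with 45.5% in the first column and 47.4% in the second. There the 7069-nt transcript held 1.71% and 1.87%.

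**Figure D4:**
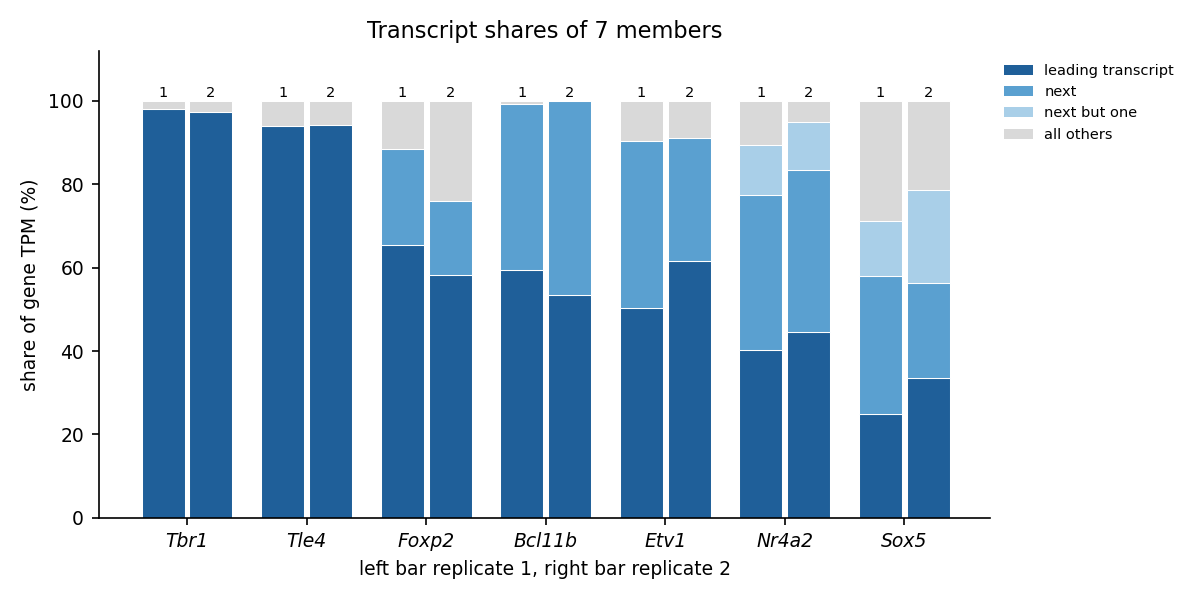
Share of gene TPM in percent for the 7 members with more than 1 transcript in use, with stacked bars for each transcript of at least 10% mean share and grey for all others, replicate 1 left and replicate 2 right. In these mm10 shares Tbr1 and Tle4 have 1 leading transcript above 93%, and Sox5 has none above 33.4% in either library.

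Junction reads of the mm9 table gave a second view of splicing. Its 2 columns are called first and second here, since the file does not tie them to replicates. An exon's inclusion was taken as the mean of the annotated junction reads at its ends over that mean plus the reads that join the outer sites directly, and 64 annotated internal exons of 9 members, alternative forms counted separately, had at least 20 such reads in each column. Mean inclusion was over 99% in 57 of them, a 17-nt Tle4 exon described below that could not be read reliably among them, and under 90% in 2, one in Bcl11b and one in Sox5. Reads at an alternative end of the same exon did not count as skipping, so overlapping forms could each score 100%. A 58-nt form in Nr4a2 did so with 67 and 0 reads at its ends in the first column and 114 and 3 in the second. For such forms the value does not show how often the form was used. Nxph4, with 12 reads in the first column and 13 in the second at its 1 annotated junction, gave no exon.

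The Bcl11b exon has 216 nt, which is 72 codons, and lies at chr12:107965672-107965887 on the minus strand of GRCm38, exon 3 of 4 of the 8111-nt transcript. It is shown with 15 coding bases of each neighbouring exon, since it is the most often skipped exon of the members, and capitals mark the exon itself.
Bcl11b exon: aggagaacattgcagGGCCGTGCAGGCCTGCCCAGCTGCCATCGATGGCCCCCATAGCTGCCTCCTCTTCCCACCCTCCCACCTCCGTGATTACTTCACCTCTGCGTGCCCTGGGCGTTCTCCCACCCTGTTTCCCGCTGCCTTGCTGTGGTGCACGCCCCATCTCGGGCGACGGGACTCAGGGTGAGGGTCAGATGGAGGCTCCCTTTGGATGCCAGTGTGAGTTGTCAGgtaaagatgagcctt
Its ends had 39 and 51 reads in the first column, against 126 reads that skipped it, and 32 and 63 reads in the second, against 151. Inclusion was 26.3% in the first column (Wilson 95% interval 20.3 to 33.4%) and 23.9% in the second, with a mean of 25.1 ± 1.69% (SD, n = 2). The intervals of the columns overlap. From the transcript shares on mm10, the form with this exon took 59.4% in replicate 1 and 53.4% in replicate 2, so the readouts differ by more than the spread of either. On mm9 the authors' transcript table went further still, with a mean share of 94.4% for the 8111-nt transcript.

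The Sox5 exon has 147 nt, or 49 codons, and lies at chr6:143907387-143907533 on the minus strand, exon 9 of 15 of the 7243-nt transcript. Capitals again mark the exon between 15 bases of each neighbour.
Sox5 exon: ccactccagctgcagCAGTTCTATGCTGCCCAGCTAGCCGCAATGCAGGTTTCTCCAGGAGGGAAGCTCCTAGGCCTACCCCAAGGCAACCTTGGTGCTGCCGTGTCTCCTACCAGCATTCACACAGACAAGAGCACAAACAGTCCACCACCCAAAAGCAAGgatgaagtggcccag
In the first column 34 and 33 reads joined its ends and 32 skipped it, and in the second 28 and 60 joined its ends and 28 skipped it. Inclusion was 51.1% (interval 39.7 to 63.2%) in the first column and 61.1% in the second, with a mean of 56.1 ± 7.05%. The transcripts with this exon took 30.7% in replicate 1 and 34.0% in replicate 2 of the share held by all Sox5 transcripts that span the site. Here the transcript shares were lower than the junction reads gave, while for Bcl11b they were higher. Both exon lengths are multiples of 3.

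**Figure D5:**
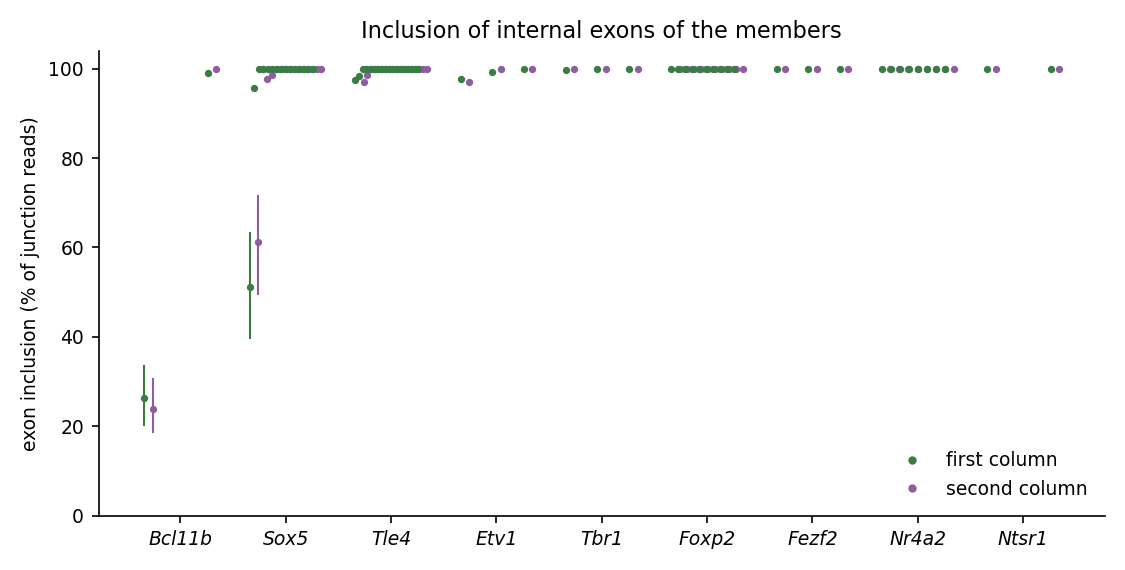
Inclusion in percent of junction reads for 64 internal exons of 9 members, with points for the first (green) and second (purple) column of the junction table and Wilson 95% intervals for the exons under 90%. The Bcl11b exon lies at 26.3% and 23.9% and the Sox5 exon at 51.1% and 61.1%, while the others lie above 95%.

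Tle4 carries a very short exon of 17 nt, of which GENCODE M21 places alternative versions in its 2 coding transcripts, 24576 nt apart. Version A lies at chr19:14516359-14516375 and version B at chr19:14491783-14491799, both on the minus strand, and they are printed with 15 bases of each neighbouring exon to show that the flanks are shared while 9 of 17 exon positions differ.
Tle4 exon A: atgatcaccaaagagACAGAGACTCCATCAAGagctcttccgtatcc
Tle4 exon B: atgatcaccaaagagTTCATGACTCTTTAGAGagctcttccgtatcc
The mm9 annotation lists 1 such exon of 17 nt in both transcripts. Its ends had 20 and 23 reads in the first column and 16 and 28 in the second, and no read joined the neighbouring exons directly. A larger set of reads, 92 in the first column and 82 in the second, fell on a junction without the annotation flag that starts 16 nt and ends 1 nt away from those neighbours, which together also makes 17 nt. Inclusion of a 17-nt exon therefore could not be read from the annotated junctions alone. Of the other Tle4 exons, one of 54 nt was skipped at a low rate, with 98.5 ± 0.0769% inclusion. One of 75 nt had 97.3 ± 0.347% inclusion by the annotated sites. That value leaves out 16 reads in the first column and 40 in the second that skipped the exon. Those reads joined an unannotated acceptor 3 nt upstream of the annotated one. Counting any junction gave 88.1% for the 75-nt exon.

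Some splice sites of the members had close competitors, found by a search made after the data were seen. At the 202-nt exon of Tle4, an acceptor 3 nt upstream of the annotated one took 53 of 182 reads in the first column and 74 of 243 in the second, a mean of 29.8 ± 0.942%. In Bcl11b an acceptor 3 nt inside the 366-nt exon took 21.2 ± 2.67%, from 11 reads in the first column and 18 in the second. In Sox5 an annotated donor 105 nt further downstream took 18.0 ± 1.55%, from 20 reads in the first column and 15 in the second. The annotated junctions held between 85.6% (Bcl11b) and 98.8% (Fezf2) of all junction reads of a member. In Tbr1, 208 reads in the first column and 207 in the second fell on a junction whose ends are both shifted by 3 nt from annotated exon ends, beside 3 and 5 reads on the annotated one.

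Several donors near the start of Nr4a2 joined the same exon. Of the annotated junctions into its 122-nt exon, the most used donor had 19 of 26 reads in the first column and 43 of 65 in the second, and a donor 10756 nt upstream of that exon had 3 and 19 reads. That is 11.5% in the first column and 29.2% in the second, from few reads. For Sox5, 4 donors competed for 1 acceptor near the start of the gene, with 77.4% in the first column and 71.8% in the second from the most used one and 16.98% and 20.5% from a donor 279201 nt upstream. Foxp2 and Etv1 each used 1 first donor for most reads at the acceptors examined, with 10 of 11 reads in the first column and 11 of 18 in the second for Foxp2.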

How the data were processed

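The members and lists were chosen with earlier results of these data known. On mm10 the authors deposited, per the file headers, expected counts, TPM, FPKM, credible bounds and the percent share of each isoform, with GENCODE M4; the program is not given in the sources used here. On mm9, with Ensembl 65, per the file headers the authors deposited RPKM and junction read counts in 2 columns not tied to replicates. Symbols, positions and exon sequences come from GENCODE M21, which named 98.0% of gene rows, and promoters from the RefSeq table of GRCm38.p6. Expected counts were rounded, scaled with TMM (edgeR 4.0.16, R 4.3.3) and tested by an exact two-sided binomial test (SciPy 1.17.1) on genes with at least 10 counts, adjusted over all of them; log2 ratios added 0.5 counts. Named are all members and paralogs, and of the other lists the 3 highest genes and those called with at least 1.5-fold differences; the rest are named where a sentence says so or a role called for it. Intervals (95%, Clopper-Pearson for ratios, Wilson for shares) reflect counting alone: no molecular identifiers are stated, so reads are not separate molecules. DESeq2 1.42.0 gave alternative size factors. The replicates' source animals are not given, so their spread may be partly technical. Contigs and assembled models were not used here.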

Additional observations from a re-analysis of the deposited data

How the results depend on the processing

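With size factors from DESeq2, plain totals of gene counts, and minimums of 1 or 50 counts, between 5485 and 6177 genes and 6 to 8 members were called, beside 5694 genes and 6 members. The negative binomial exact test with a common dispersion called 260 genes and 1 member, and a minimum of 1.5-fold left 868 genes and 1 member, Nr4a2 both times. The log2 ratio of Tbr1 turned to 0.017 with plain totals and to 0.135 on the TPM scale, where Tle4 turned to 0.027 and Etv1 to 0.034; the median of all genes is 0.156 on that scale. Without division by length the ratio of Tle4 turned to 0.196 over Tle1 and to 0.225 over Tle3, and that of Nr4a2 over Nr4a3 to -0.359. Counts of members at 10 TPM or more (5 to 7), of pairs with the member higher (8 to 9), of members with a leading transcript under 60% (4 to 5), of members at 1 RPKM (6 to 8) and of exons under 90% (2 to 3) stayed within 1.5 times the values given. Without replicate 1 or without replicate 2, these were 6 members at 10 TPM, 8 pairs and 4 members with a mixed transcript set, though with replicate 2 alone Foxp2 took the place of Etv1 in that set. In mm9 transcript RPKM the 5 members under 60% were another set: Bcl11b left it (94.4%), and Tle4 (58.3%) and Foxp2 (42.6%) entered. Sox5 stayed in it with another leading transcript (46.5%). Counting any junction, chosen after seeing the data like the mm9 transcript shares, brought the 75-nt Tle4 exon to 88.1%. No paired analysis was possible because the series holds 1 group. The difference between libraries rests on 1 library each, so neither can be left out. Depth limits Nxph4, the junction counts and the 3 paralogs near 0.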
